A study of Mus musculus with 10 samples.

Results

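The RBFOX splicing regulators are 3 genes, Rbfox1, Rbfox2 and Rbfox3, of the 55487 genes in the expression table. They were taken by gene symbol, with all of their 104 exon bins (of 458337) and all of their 66 introns (of 32135), which lie in 18 of the 10838 groups of overlapping introns called clusters. An exon bin is a stretch of exon cut wherever an annotated transcript begins or ends an exon, and an intron here is a pair of splice sites joined by sequencing reads. The family was chosen because an earlier pass over the same libraries had shown a bin near the 5′ end of Rbfox3 and an intron cluster of Rbfox1 that differed between the genotypes. The genotype contrast was therefore used in choosing them, and every difference of the 3 genes between genotypes is given below as a description. Where a fit across all genes, bins or introns put one of them past its threshold, that is printed as a position in the fit and not as a test of the family.

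Cortical RNA of 10 mice, 18 days old, was sequenced, 5 animals in each of 2 groups and 1 library per animal. The groups were Usp7 WT; Trp53+/- and Usp7 cKO; Trp53+/- (conditional knockout, Usp7 fl/fl crossed with NEX-cre), so both groups carried 1 functional copy of Trp53, the gene of the tumour suppressor p53. Usp7 encodes an enzyme that takes ubiquitin off other proteins, and NEX-cre acts in glutamatergic neurons, so the other cells of the tissue keep the floxed gene. The strain is not given in the sources used here, the labels speak of litter- and sex-matched pairs without naming them, and the labelled sex was a covariate.

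RBFOX proteins bind the RNA motif UGCAUG through a single RNA recognition motif and act on nearby exons. Binding downstream of an alternative exon generally favours its inclusion, and binding upstream favours its skipping. Rbfox1 is expressed in neurons, heart and muscle, Rbfox2 in many cell types, and Rbfox3 encodes NeuN, the nuclear antigen widely used to mark mature neurons. The genes use several alternative first exons, and they splice their own internal exons alternatively, including one in the RNA recognition motif and a pair near the 3′ end of the coding sequence that is used in brain or in muscle.

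The bases of a coding exon show how alike the 3 genes are in the RNA recognition motif. A 93-nt coding exon of the RNA recognition motif is shown from each gene, in lower case where the 3 genes have the same base and in capitals where any differs (GENCODE vM21 transcripts, GRCm38, each read along its own strand). The exon lies at chr16:7292185-7292277 on the plus strand in Rbfox1, chr15:77105577-77105669 on the minus strand in Rbfox2 and chr11:118502842-118502934 on the minus strand in Rbfox3.
Rbfox1, 93-nt exon: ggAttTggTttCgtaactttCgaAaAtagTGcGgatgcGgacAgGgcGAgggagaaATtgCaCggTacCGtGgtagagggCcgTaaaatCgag
Rbfox2, 93-nt exon: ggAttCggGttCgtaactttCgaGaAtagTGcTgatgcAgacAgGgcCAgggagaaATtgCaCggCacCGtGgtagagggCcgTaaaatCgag
Rbfox3, 93-nt exon: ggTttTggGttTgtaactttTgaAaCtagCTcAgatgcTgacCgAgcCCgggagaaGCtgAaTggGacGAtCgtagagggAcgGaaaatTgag
All 3 genes shared 67 of the 93 bases. Rbfox1 and Rbfox2 were identical at 92.5% of positions, and Rbfox3 matched either of them at 74.2%. These are identities of bases, and the protein sequences were not compared.

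The 40-nt exon is the form of the alternative pair used in brain, and the 43-nt exon is the form used in muscle. They are shown because the reads over them give the type of RBFOX transcript present. The 40-nt exons lie at chr16:7363865-7363904, chr15:77094451-77094490 and chr11:118496351-118496390, and the 43-nt exons at chr16:7369801-7369843 and chr15:77091812-77091854; capitals again mark the positions at which the set differs.
Rbfox1, 40-nt exon: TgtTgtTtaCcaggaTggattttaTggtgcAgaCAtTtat
Rbfox2, 40-nt exon: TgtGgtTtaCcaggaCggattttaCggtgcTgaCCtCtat
Rbfox3, 40-nt exon: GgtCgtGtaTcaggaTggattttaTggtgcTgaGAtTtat
Rbfox1, 43-nt exon: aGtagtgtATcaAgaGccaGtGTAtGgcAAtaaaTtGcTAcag
Rbfox2, 43-nt exon: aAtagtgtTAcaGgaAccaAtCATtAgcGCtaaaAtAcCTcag
The 40-nt exons shared 30 of 40 bases among the 3 genes, and the 43-nt exons shared 27 of 43 between Rbfox1 and Rbfox2.

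Finally, 2 alternative coding starts of Rbfox1 are shown because the shares of spliced reads leaving their exons differed between the genotypes. Transcripts Rbfox1-201, Rbfox1-202 and Rbfox1-205 begin translation at chr16:6809222-6809248, and Rbfox1-208 at chr16:7193851-7193877, both on the plus strand. Capitals mark the start codon.
Rbfox1-202, coding start: ATGaattgtgaaagagagcagctgagg
Rbfox1-208, coding start: ATGagatctgacaacgtgatcaccact
The 27 bases of the 2 starts were the same at 12 positions, so the 2 transcripts encode different amino-terminal ends.

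Libraries held 42628526 to 51797145 exon bin counts and 3388310 to 4367711 spliced read counts. The targeted gene Usp7 ranged from 48.3 to 61.9 in Usp7 WT and from 31.6 to 40.9 in Usp7 cKO, with no overlap, in TPM, a unit of transcripts scaled by length and library size. Neurod6, the locus that carries NEX-cre, ranged from 50.1 to 54.4 TPM and from 21.5 to 26.6 TPM. Usp7 and Neurod6 were thus lower in the same libraries. Parts of lower Usp7, lower Neurod6 and Cre itself in any difference between the genotypes cannot be told apart. In 2 libraries, Usp7 WT replicate 2 and Usp7 cKO replicate 1, Xist and the Y-linked gene Ddx3y went against the labelled sex, so values without both are given where they differ. All Usp7 cKO libraries have lower identifiers than the Usp7 WT ones in the bin table's header, so library order and genotype cannot be told apart.

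Rbfox1, which spans chr16:5885355-7411526 and has 8 annotated transcripts, was lower in Usp7 cKO. In TPM, Usp7 WT replicates 1 to 5 measured 272.7, 276.7, 296.5, 247.4 and 298.6, and Usp7 cKO replicates 1 to 5 measured 219.7, 209.3, 217.1, 227.6 and 227.9. The lowest Usp7 WT library stood above the highest Usp7 cKO library, so the groups did not overlap. The means were 278.4 ± 20.8 and 220.3 ± 7.79 TPM (SD, n = 5 each), a ratio of 0.791 and a difference in log2(TPM + 0.5) of -0.33 (SE 0.06, 95% interval -0.46 to -0.21). In bulk tissue, fewer cells of a type and less RNA per cell cannot be told apart.

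Rbfox3 (chr11:118489762-118911597, minus strand, 10 transcripts) was lower by a similar amount. In replicate order, its TPM values were 206.6, 195.5, 202.8, 194.3 and 221.8 for Usp7 WT and 148.7, 176.0, 177.1, 155.7 and 152.9 for Usp7 cKO. Again each Usp7 WT library was above each Usp7 cKO library. The means were 204.2 ± 11.1 and 162.1 ± 13.4 TPM (SD, n = 5 each), a ratio of 0.794 and a log2 difference of -0.33 (SE 0.05, 95% interval -0.46 to -0.21). NeuN is a pan-neuronal protein, and 8 pan-neuronal marker genes had a median log2 difference of -0.08. Of these, 2 fell in Usp7 cKO, Syt1 and Thy1, which is 25% beside 4.67% of all genes. None rose, although Tubb3, a neuronal tubulin, had its groups apart in the other direction (774.3 to 923.4 TPM for Usp7 WT and 931.6 to 997.0 TPM for Usp7 cKO, log2 difference 0.14, limma adjusted p = 0.154).

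Rbfox2 (chr15:77078990-77307004, minus strand, 15 transcripts) did not share that difference. Its TPM values were 159.7, 158.8, 169.1, 150.9 and 180.2 for Usp7 WT and 178.2, 174.3, 180.5, 160.3 and 162.7 for Usp7 cKO. The groups overlapped, with means of 163.7 ± 11.2 and 171.2 ± 9.14 TPM (SD, n = 5 each) and a log2 difference of 0.07 (SE 0.06, 95% interval -0.06 to 0.19). Without scaling by length the 5 Usp7 cKO libraries were all above the 5 Usp7 WT libraries, at 448.1 to 473.5 against 417.4 to 431.0 CPM (bin counts scaled to library size).

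**Figure D1:**
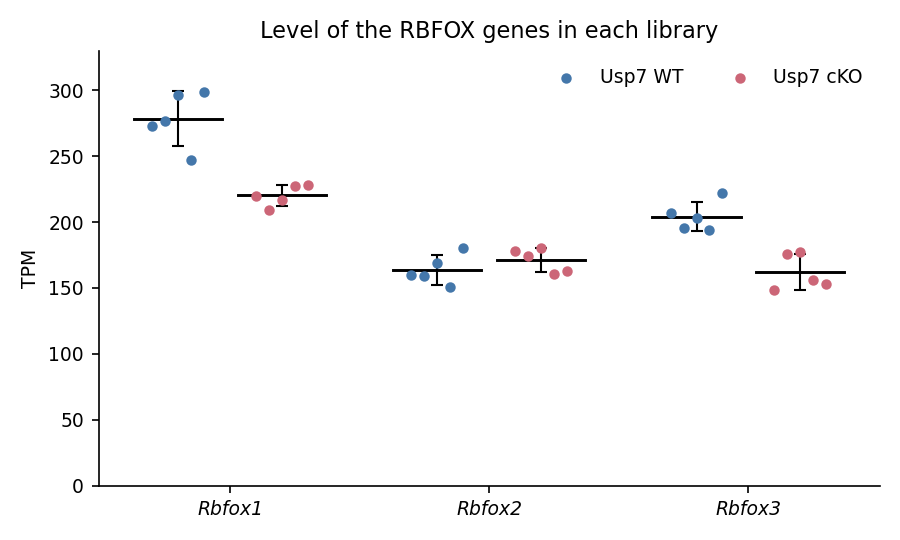
Level of Rbfox1, Rbfox2 and Rbfox3 in TPM (y axis, from 0) in each of 5 Usp7 WT and 5 Usp7 cKO libraries. Points are libraries, black lines the mean and bars 1 SD; the groups are apart for Rbfox1 (247.4 to 298.6 against 209.3 to 227.9 TPM) and Rbfox3, and overlap for Rbfox2.

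Of the 27580 genes whose level was tested, 13.9% were called at an adjusted p of 0.05 (limma, Benjamini-Hochberg), 4.67% as lower and 9.22% as higher in Usp7 cKO. Groups did not overlap for 12.8% of genes, 4.58% with Usp7 cKO lower and 8.19% with Usp7 cKO higher. Rbfox1 and Rbfox3 were called lower and had groups apart, and Rbfox2 was not called; nothing is read from this, because the choice of the genes used the same contrast. Without the 2 libraries that went against their labelled sex the log2 differences were -0.34, 0.02 and -0.35 for Rbfox1, Rbfox2 and Rbfox3. The median log2 difference of all tested genes was 0.06, and 0.01 after rescaling by size factors, which moved the share of calls that were higher from 66.4% to 46.8%; edgeR and DESeq2 on summed bin counts put it at 50.2% and 48.0%.

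Within each genotype the 3 genes could be put in order on the TPM scale. In Usp7 WT the order was Rbfox1, Rbfox3 and Rbfox2, and the ranges of neighbours did not overlap (247.4 to 298.6, 194.3 to 221.8 and 150.9 to 180.2 TPM). In Usp7 cKO Rbfox1 stayed highest at 209.3 to 227.9 TPM, while Rbfox2 (160.3 to 180.5 TPM) and Rbfox3 (148.7 to 177.1 TPM) overlapped.

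Rbfox2 made up more of the family in Usp7 cKO. The summed level of the 3 genes was 646.3 ± 40.6 TPM for Usp7 WT and 553.6 ± 13.5 TPM for Usp7 cKO (SD, n = 5 each), with no overlap. Rbfox2 made up 25.3% ± 0.28 of that sum in Usp7 WT and 30.9% ± 1.23 in Usp7 cKO. The Usp7 WT libraries lay between 25.0% and 25.7% and the Usp7 cKO libraries between 29.5% and 32.6%, so the separation was wider than the spread in either group. The shares of Rbfox1 (43.05% ± 1.05 and 39.8% ± 2.17) and Rbfox3 (31.6% ± 0.99 and 29.2% ± 1.81) were lower on average in Usp7 cKO, with overlapping groups. As shares of bin CPM the groups were apart for both, from 34.4% to 36.8% against 29.99% to 33.7% for Rbfox1 and from 27.7% to 29.99% against 23.8% to 27.6% for Rbfox3.

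Markers of the cells in which Cre acts were also lower. Of 7 glutamatergic neuron markers, 6 fell in Usp7 cKO and their summed TPM ranged from 7551 to 8844 for Usp7 WT and from 4333 to 5426 for Usp7 cKO; none was at 0 in any library. Nrgn, a calmodulin-binding postsynaptic protein, fell by 0.96 on the log2 scale, Tbr1, a deep-layer transcription factor, by 0.59 and Slc17a7, the vesicular glutamate transporter, by 0.39 (limma adjusted p of 3.89e-05, 0.000466 and 0.000339). All 6 microglial markers also fell, with summed levels of 244.4 to 277.9 and 160.3 to 184.7 TPM. Of 8 GABAergic markers Pvalb fell, of 6 astrocyte markers Sox9 and Gfap rose, and none of the 6 oligodendrocyte or 5 endothelial markers passed the test. Over all genes, 4.67% were called lower and 9.22% higher. The calls of Pvalb, Sox9 and Gfap were lost in 11, 4 and 5 of 20 alternatives, among them that without the 2 libraries that went against their labelled sex. The part of these markers in the RBFOX levels was not tested.

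The exon bins located where along each gene the genotypes differed. Usage of a bin is its log2 change minus that of the whole gene, and 98 of the 104 bins had a mean count of at least 10 and were fitted (29 of 30 in Rbfox1, 40 of 43 in Rbfox2 and 29 of 31 in Rbfox3). Bins were called at an adjusted p of 0.05 in edgeR, which called 0.43% of 228098 bins, 0.331% as used more and 0.0986% as used less in Usp7 cKO. Of the members' bins, 6 were called, 5 in Rbfox1, 1 in Rbfox3 and none in Rbfox2. By gene, 2.85% of 13954 genes were called, and in the order of evidence Rbfox3 stood at position 11, Rbfox1 at 22 and Rbfox2 at 11911. The calls and the positions restate why the family was chosen, the Rbfox3 bin above all, and nothing is read from them against the background.

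In Rbfox1, 4 of the 5 called bins lay at the 5′ end of the gene and were used more in Usp7 cKO. The outermost, chr16:5885355-5885586, is the start of the first exon of transcript Rbfox1-205 and is 5′ UTR. It held 7.80, 6.73, 6.62, 7.26 and 8.49 CPM in Usp7 WT and 8.63, 9.64, 10.1, 9.17 and 10.8 CPM in Usp7 cKO. All Usp7 cKO libraries were above all Usp7 WT libraries, although the gene as a whole was lower. As a share of the bin counts of Rbfox1 it went from 1.71% ± 0.19 to 2.82% ± 0.29 (SD, n = 5 each), a usage change of 0.72 on the log2 scale.

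The rest of that exon and the exons downstream of it differed in the same direction by less. The remaining part of the first exon, chr16:5885587-5885864, held 2.43% ± 0.31 and 3.63% ± 0.35 of the gene's bin counts (usage 0.58), with groups apart. The bin chr16:5886120-5886253, from the noncoding transcript Rbfox1-204, held 0.33% ± 0.09 and 0.49% ± 0.07 (usage 0.58), and chr16:6173605-6173667, a 5′ UTR exon of Rbfox1-205, held 1.79% ± 0.22 and 2.39% ± 0.29 (usage 0.42). The groups overlapped at both of these bins, and without the 2 libraries that went against their labelled sex neither was called (usage 0.38 and 0.41). The call at chr16:5886120-5886253 was also lost without Usp7 cKO replicate 1, 2, 3 or 5 or Usp7 WT replicate 1, 2 or 3, and that at chr16:6173605-6173667 without Usp7 cKO replicate 5 or Usp7 WT replicate 1.

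The fifth called bin of Rbfox1 was used less. It is the first exon of Rbfox1-208, chr16:7193747-7193877, which holds the second of the coding starts shown above. Its counts were 132, 101, 114, 116 and 94 in Usp7 WT and 54, 48, 54, 50 and 52 in Usp7 cKO, and the groups did not overlap. Its share of the gene went from 0.53% ± 0.07 to 0.32% ± 0.05 (SD, n = 5 each), a usage change of -0.71 and of -0.86 without the 2 libraries that went against their labelled sex.

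Other first exons of Rbfox1 followed the gene. The first exon of Rbfox1-201, chr16:6349138-6349231, gave 11.4 ± 0.53 and 8.24 ± 0.54 CPM (SD, n = 5 each; usage -0.14). The coding start of Rbfox1-202 gave 16.5 ± 0.98 and 13.7 ± 1.19 CPM (usage 0.06), and the first exon of Rbfox1-203, chr16:7069846-7070085, gave 1.81 ± 0.26 and 1.54 ± 0.18 CPM (usage 0.10). Thus the mean of the outermost first exon was higher in Usp7 cKO, that of Rbfox1-208 was lower by a ratio of 0.487, and the others lay between. Next in order of p, though well outside the threshold, were chr16:5895484-5895700 (usage 0.51) and the 3′ UTR bin chr16:7409814-7409969 (usage -0.18). The bins with the most counts, the coding exon chr16:7224311-7224550 and the 3′ UTR bin chr16:7409998-7411526, had usage of -0.01 and -0.04.

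In Rbfox3 a single bin was called, the first exon of transcript Rbfox3-209, chr11:118569551-118569910, a 5′ UTR exon that lies inside an intron of the longer transcripts. Its counts were 124, 71, 77, 96 and 122 in Usp7 WT and 140, 180, 202, 159 and 235 in Usp7 cKO, so every Usp7 cKO library was above every Usp7 WT library. Per library size this was 2.02 ± 0.58 and 3.92 ± 0.76 CPM (SD, n = 5 each), a ratio of 1.94, while the whole gene had a ratio of 0.795 on the same CPM scale. Its share of the gene's bin counts went from 0.58% ± 0.16 to 1.42% ± 0.30, a usage change of 1.29, and 1.08 without the 2 libraries that went against their labelled sex.

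The main first exon of Rbfox3, chr11:118909304-118909550, shared by Rbfox3-201, Rbfox3-204, Rbfox3-205 and Rbfox3-206, followed the gene at 19.999 ± 1.18 and 15.3 ± 1.83 CPM (SD, n = 5 each; usage -0.06). Next in order outside the threshold were chr11:118507209-118507353, the first exon of Rbfox3-210 (usage 0.73, mean count 19.1), and the coding bin chr11:118491994-118492638 (usage 0.28). The first of these moved to 0.34 without the 2 libraries that went against their labelled sex. The bins with the most counts, the 3′ UTR bin chr11:118489764-118491154 and the coding exon chr11:118513150-118513404, had usage of 0.03 and 0.02. All annotated transcripts of Rbfox3 that pass through that coding exon start translation in it, so the exon used more adds 5′ UTR and no coding sequence.

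No bin of Rbfox2 stood apart. Usage over its 40 tested bins ran from -0.21 to 0.14 with a median of 0.00. The bins first in order of p were chr15:77116370-77116920, from a noncoding transcript (usage -0.20), and chr15:77153557-77153754, the 5′ UTR of the internal first exon of Rbfox2-202, Rbfox2-203 and Rbfox2-209 (usage 0.14). Its most counted bins were 3′ UTR, chr15:77080479-77082271 and chr15:77078991-77080478, with usage of 0.02 and 0.00.

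**Figure D2:**
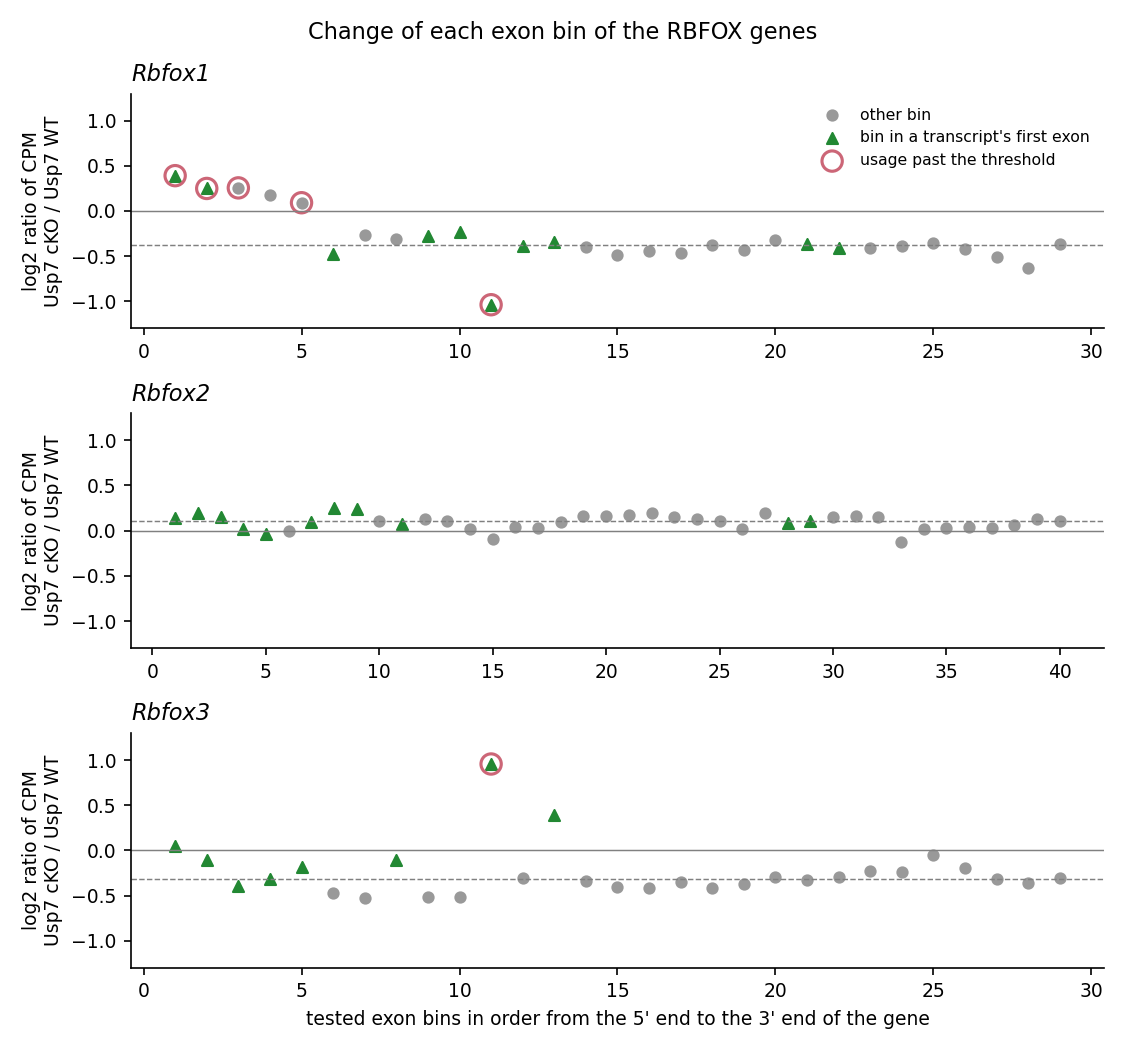
Log2 ratio of mean CPM, Usp7 cKO over Usp7 WT (y axis), of each tested exon bin in order from the 5′ to the 3′ end of the gene (x axis). Triangles are bins in the first exon of an annotated transcript, circled bins had usage past the threshold and the dashed line is the gene's median; the 4 circled bins at the left of Rbfox1 lie above 0, its remaining circled bin lies lowest, and the circled bin of Rbfox3 lies highest.

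Read without reference to usage, the bins gave the same picture of the body of each gene. In CPM, 20 of the 29 tested Rbfox1 bins and 15 of the 29 tested Rbfox3 bins had every Usp7 cKO library below every Usp7 WT library, and 1 in each gene had the reverse; over 234893 bins, 3.49% were lower and 6.53% higher in this sense. Of the 40 Rbfox2 bins, 2 were higher and none was lower. Nothing more is read from these counts, as the genes were chosen on this contrast.

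Spliced reads joined some of the first exons to the body of the gene. In Rbfox1 no listed intron began upstream of chr16:6809248, so the called bins at its 5′ end have no spliced reads to set beside them. Of 66 introns 61 were fitted, and 3 were called, 2 in Rbfox1 and 1 in Rbfox3; edgeR called 0.117% of 30733 introns. By cluster, 1 of 6 was called in Rbfox1, none of 6 in Rbfox2 and 1 of 6 in Rbfox3, against 0.22% of 10441 clusters. The Rbfox1 cluster is what the family was chosen on, so these calls too are descriptions from which nothing is read. Intron counts of Usp7 WT replicate 1 were all even numbers as deposited, against 52.8% to 55.0% in the other libraries, and were halved.

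The called cluster of Rbfox1 consists of 5 splice donors joined to the same acceptor at chr16:7224311, the start of the coding exon that follows the alternative starts. Between 759 and 1414 reads per library entered that exon. The donor of the main coding start, 415 kb upstream at chr16:6809248, supplied 64.4%, 66.4%, 67.4%, 70.0% and 66.1% of them in Usp7 WT and 73.9%, 74.6%, 77.9%, 74.2% and 77.4% in Usp7 cKO. Its share was thus higher in every Usp7 cKO library, although its reads, scaled to CPM of spliced reads, were 203.3 ± 12.1 and 176.2 ± 13.0 (SD, n = 5 each) and overlapped.

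The donor of Rbfox1-208, 30.4 kb upstream at chr16:7193877, supplied 10.2%, 6.80%, 6.86%, 9.56% and 7.74% of the entering reads in Usp7 WT and 4.74%, 3.41%, 2.61%, 2.64% and 0.757% in Usp7 cKO. Its reads summed to 526 in Usp7 WT and 123 in Usp7 cKO. The shares did not overlap, and the usage change was -1.60 (-1.88 without the 2 libraries that went against their labelled sex). The authors' deposited table marks this donor as unannotated, whereas GENCODE vM21 ends the first exon of Rbfox1-208 there.

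A donor 6.48 kb upstream, at chr16:7217829, for which GENCODE vM21 has no exon, behaved likewise. It supplied 10.3%, 13.2%, 13.8%, 9.72% and 11.1% of the entering reads in Usp7 WT and 6.06%, 2.68%, 2.15%, 5.29% and 7.03% in Usp7 cKO, from 742 and 210 reads. The groups were apart and the usage change was -1.33; it was -1.32 and no longer called without the 2 libraries that went against their labelled sex. The donors 184 kb and 185 kb upstream supplied 12.3% ± 1.57 and 15.2% ± 1.94, and 1.04% ± 0.46 and 1.74% ± 0.71, with overlapping groups. Entry from the 2 donors nearest to the exon was therefore 65.6% and 60.1% lower as a mean share, and entry from the 3 farther donors was higher as a mean share. All are shares of the same reads, so a lower share of some donors raises that of the others. In CPM of spliced reads, the donors 415, 184 and 185 kb upstream had ratios of 0.866, 0.945 and 1.29 between the genotypes.

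The called cluster of Rbfox3 enters the exon that holds its start codon, with the acceptor at chr11:118513404 and 535 to 967 reads per library. The donor of the Rbfox3-209 first exon, 56.1 kb upstream, supplied 2.93%, 2.90%, 2.45%, 3.00% and 3.50% of the reads entering it in Usp7 WT and 16.3%, 10.2%, 8.01%, 10.5% and 9.03% in Usp7 cKO. The counts were 24, 22, 21, 29 and 32 reads and 87, 76, 51, 77 and 55 reads. The lowest Usp7 cKO share was more than the highest Usp7 WT share, and the ratio of the means was 3.65. The usage change was 1.92, and 1.75 without the 2 libraries that went against their labelled sex.

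The main donor, 96.8 kb upstream at chr11:118610159, supplied 95.5% ± 0.71 in Usp7 WT and 86.5% ± 3.20 in Usp7 cKO (SD, n = 5 each), with groups apart. Its reads in CPM of spliced reads had a ratio of 0.742 between the genotypes, and those of the Rbfox3-209 donor a ratio of 2.95. The remaining donor, 157 kb upstream, which skips the 40-nt 5′ UTR exon, supplied 1.52% ± 0.57 and 2.73% ± 0.46, with overlapping groups.

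The reads over the Rbfox3-209 first exon and the reads leaving it come from 2 separate tables of the same libraries. Both placed it higher in Usp7 cKO, and in Rbfox1 both placed the Rbfox1-208 first exon lower. They count reads of the same RNA and are not independent of each other.

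**Figure D3:**
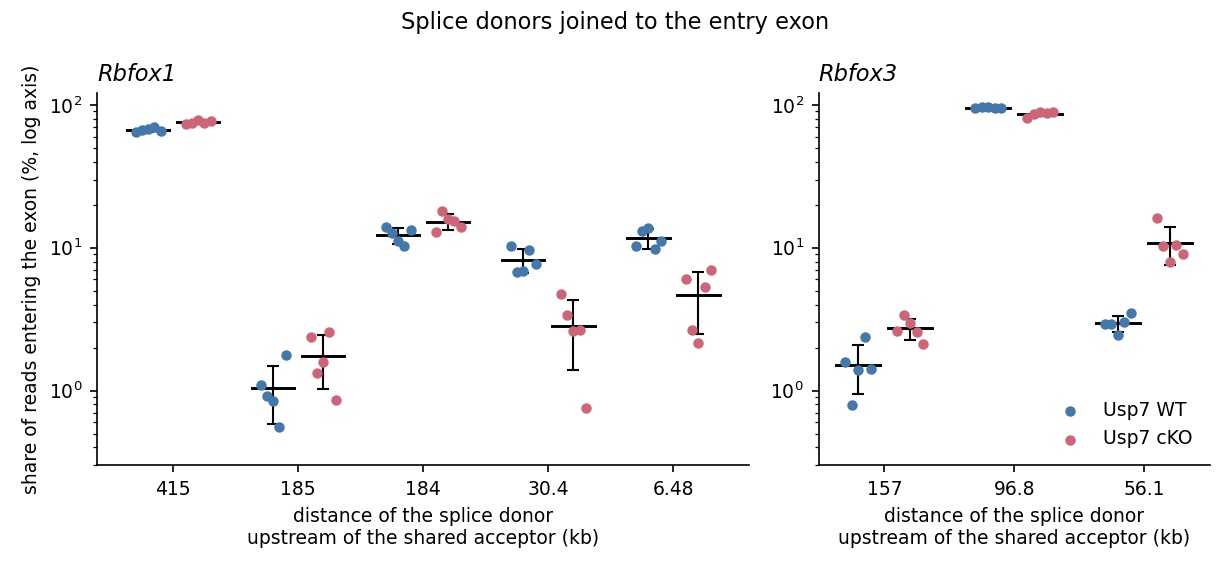
Share of the spliced reads entering the shared exon that came from each donor (y axis, %, log scale), by distance of the donor upstream of the acceptor (x axis, kb), for Rbfox1 and Rbfox3. Points are libraries, black lines the mean and bars 1 SD. In Rbfox1 the genotypes are apart at the donors 30.4 and 6.48 kb upstream, where Usp7 cKO is lower, and at 415 kb, where it is higher. In Rbfox3 they are apart at the donor 56.1 kb upstream, where Usp7 cKO is higher, and at 96.8 kb, where it is lower.

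Rbfox2 has the same layout of alternative starts, and its entry reads differed little. Into the exon at chr15:77132941, reached by 7 donors, the donor 98.4 kb upstream supplied 63.9% ± 2.59 and 61.7% ± 2.93 of reads. The internal start 20.6 kb upstream supplied 23.7% ± 2.78 and 25.9% ± 1.98. Direct reads from the outermost start, 173 kb upstream, made up 7.93% ± 0.95 and 8.66% ± 0.76 (SD, n = 5 each). The donor 98.4 kb upstream ends the 51-nt exon chr15:77231387-77231437. That exon is itself joined to the outermost start (376 and 380 reads in Usp7 WT and Usp7 cKO) and to one at chr15:77245490 (845 and 803 reads). The shares of donors are therefore not shares of starts. The groups overlapped at all 7 donors, from 579 to 800 reads per library.

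Of the internal exons described next, the genotypes were apart at a single one. Inclusion is given as a percent. It sets the mean of the reads at an exon's 2 borders against the reads that join its flanking exons directly. Reads of other introns in the cluster are left out. The 93-nt exon of the RNA recognition motif was skipped in Rbfox2 by 4 to 24 reads per library, which left inclusion at 97.1% ± 1.56 in Usp7 WT and 98.3% ± 0.85 in Usp7 cKO (SD, n = 5 each) with overlapping groups. No listed intron skipped that exon in Rbfox1 or Rbfox3.

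The exon pair near the 3′ end of the coding sequence was in its brain form in both genotypes. The 40-nt exon had a mean of 695.4 bin counts per library in Rbfox1, 355.0 in Rbfox2 and 569.4 in Rbfox3, and the 43-nt exon had 5.5 in Rbfox1 and 41.1 in Rbfox2. Inclusion of the 40-nt exon was 95.5% ± 1.03 and 97.1% ± 1.86 in Rbfox1, and 82.4% ± 5.28 and 83.3% ± 2.702 in Rbfox2. The Rbfox2 values leave out 321 and 469 reads that join this exon to the 32-nt stretch described next. Against reads that skip both exons, Rbfox2 included its 43-nt exon at 8.54% ± 5.08 and 11.3% ± 4.21. These values rest on 53 and 74 border reads in all, so the share is loosely measured. They leave out 1104 and 926 reads that join the 40-nt exon to the next exon and so also skip the 43-nt exon. The 2 introns of the 43-nt exon held 0.61% and 0.68% of the cluster's reads in Usp7 WT and 0.89% and 0.92% in Usp7 cKO. The groups overlapped at each of these exons.

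The largest separation among internal exons was in Rbfox2, at a 32-nt stretch, chr15:77089862-77089893, for which GENCODE vM21 has no exon. Between the 40-nt exon and the exon at chr15:77086155 it was included at 20.9%, 26.8%, 24.5%, 21.8% and 21.5% in Usp7 WT and at 31.3%, 29.5%, 33.8%, 31.9% and 38.8% in Usp7 cKO. The groups did not overlap, with means of 23.1% ± 2.47 and 33.0% ± 3.57 (SD, n = 5 each) from 668 and 908 border reads and 1104 and 926 skipping reads. Its introns had usage changes of 0.31 and 0.52 and were not called. This exon was singled out after its values were seen, and its length is not a multiple of 3.

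Rbfox1 has a 53-nt stretch of the same kind, chr16:7391988-7392040, between the exons that end at chr16:7375969 and begin at chr16:7407964. It was included at 49.9% ± 2.57 and 52.5% ± 2.90 (SD, n = 5 each), with overlapping groups. An 81-nt coding exon of Rbfox1, chr16:7330362-7330442, was included at 81.7% ± 0.95 and 79.6% ± 1.61, and the 54-nt coding exon before it at 95.1% ± 1.33 and 95.3% ± 1.32. The 40-nt 5′ UTR exon of Rbfox3, chr11:118610159-118610198, was included at 98.3% ± 0.65 and 96.7% ± 0.57. Groups overlapped at all of these.

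**Figure D4:**
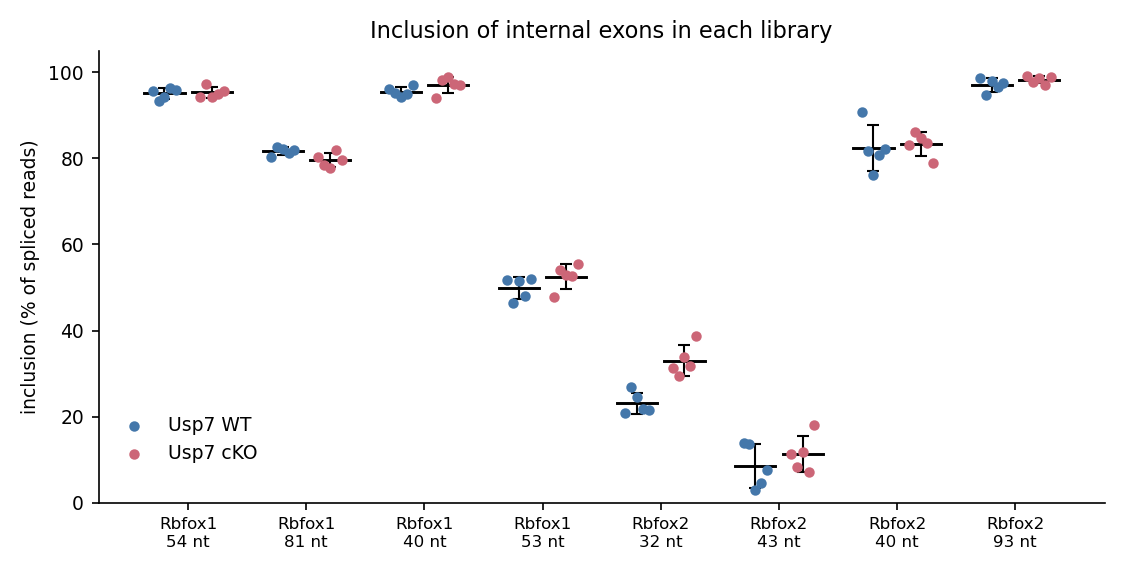
Inclusion (y axis, % of spliced reads) of 8 internal exons of Rbfox1 and Rbfox2 (x axis, gene and exon length in nt) in each library. Only border reads and reads that join the flanking exons directly are counted. Points are libraries, black lines the mean and bars 1 SD; the genotypes are apart at the 32-nt stretch of Rbfox2 (20.9% to 26.8% against 29.5% to 38.8%) and overlap at the others.

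RBFOX proteins work in a complex with other RNA-binding proteins, the large assembly of splicing regulators (LASR). Of 8 genes of that complex, 2 rose and 1 fell in Usp7 cKO, which is 37.5% beside 13.9% of all genes. The list's median log2 difference was 0.05. Hnrnph1, which binds G-rich RNA, went from 48.5 ± 3.78 to 58.7 ± 5.08 TPM (limma log2 difference 0.27, SE 0.07, adjusted p = 0.0264). Hnrnpc, which binds U-rich RNA, fell by 0.27 on the log2 scale (adjusted p = 0.0275). Of 20 alternatives, the calls of Hnrnph1 and Hnrnpc were lost in 7 and 8, among them that without the 2 libraries that went against their labelled sex.

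Among 24 other neuronal or general splicing regulators 23 were tested, and 2 rose and 4 fell, which is 26.1% beside 13.9% of all genes. The list's median log2 difference was -0.03. Those that fell were Khdrbs3 (SLM2, a STAR-family protein), Nova1 (a neuronal KH-domain protein), Elavl2 (a neuronal Hu protein) and Celf5, by 0.35, 0.28, 0.25 and 0.22 on the log2 scale (limma adjusted p = 0.00886, 0.0158, 0.0202 and 0.0194). Khdrbs3 went from 157.9 ± 11.1 to 124.1 ± 12.3 TPM (SD, n = 5 each), with groups apart, and kept its call in all 20 alternatives. Without the 2 libraries that went against their labelled sex Nova1, Elavl2 and Celf5 lost their calls, as did Elavl2 without Usp7 cKO replicate 4 and Celf5 without Usp7 cKO replicate 2 or 4. The 2 that rose, named after their values were seen, were Ptbp1 and Srrm4 (0.35 and 0.29, adjusted p = 0.0369 and 0.0383); Ptbp1 represses neuronal exons and Srrm4 promotes neuronal microexons, and their calls were lost in 9 and 12 alternatives.

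A list of 31 genes with exons known as RBFOX targets, drawn up with earlier results of these data known, was read in the same 3 ways. In level, 2 rose and 6 fell, which is 25.8% of the list beside 13.9% of all genes, and the list's median log2 difference was 0.00. The same share was 37.5% for the LASR genes, 26.1% for the other regulators and 25% for the pan-neuronal markers. Over the lists of cell types it ran from 0% to 100%. No share among genes of similar bin counts was computed for levels or introns. Dclk1, a microtubule-binding kinase, went from 308.4 ± 19.1 to 243.8 ± 7.45 TPM, and Mef2c, a transcription factor of excitatory neurons, from 188.1 ± 8.05 to 141.0 ± 12.7 TPM (SD, n = 5 each). Their log2 differences were -0.34 and -0.42 (limma adjusted p = 0.00125 and 0.00206), the groups did not overlap, and both calls held in all 20 alternatives. Sptan1, a spectrin, fell by 0.20 (limma adjusted p = 0.0217) and lost its call without Usp7 cKO replicate 4 or 5 or Usp7 WT replicate 1.

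In exon bin usage, 10 of 30 target genes were called, 33.3%. The list is deeply sequenced, with a median of 13537 bin counts per gene and library against 1073 over all genes, and among the 659 genes at or above the list's median 20.5% were called. Mef2c differed most, at a 96-nt 5′ UTR exon, chr13:83520385-83520480. Its share of the Mef2c bin counts was 0.168%, 0.162%, 0.165%, 0.179% and 0.151% in Usp7 WT and 0.0216%, 0.0259%, 0.050004%, 0.0419% and 0.0252% in Usp7 cKO. The groups were far apart, and the usage change was -2.31 on the log2 scale (edgeR adjusted p = 5.27e-18). The exon belongs to 5 annotated transcripts and is the first exon of none of them.

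The other target bins with the strongest evidence changed by less. In Dclk1 a 4744-nt bin of transcripts Dclk1-203 and Dclk1-212 that holds coding sequence, chr3:55466573-55471316, went from 2.83% ± 0.36 to 4.09% ± 0.14 of the gene (SD, n = 5 each; usage 0.54, edgeR adjusted p = 3.37e-08), with groups apart. In Snap25, which encodes a membrane fusion protein of the synapse, a 118-nt coding exon, chr2:136769743-136769860, went from 1.71% ± 0.13 to 2.35% ± 0.29 (usage 0.47, adjusted p = 0.000307), with groups apart. Bins from noncoding transcripts of Grin1, chr2:25314401-25316754, and Sptan1, chr2:29986933-29988333, were used more by 0.78 and 0.52 (adjusted p = 5.04e-12 and 1.22e-06), with overlapping groups. These 5 bins kept their calls in all 17 alternatives.

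By introns, 1 of 30 target genes was called, against 0.355% of the 5640 genes with a tested cluster. It was Mef2c, whose intron from the same 5′ UTR exon, chr13:83520480-83575535, held 3.26% ± 1.65 of its cluster in Usp7 WT and 0.54% ± 0.53 in Usp7 cKO (SD, n = 5 each; usage -2.47, edgeR adjusted p of the cluster = 0.0201). The groups overlapped, and the call was lost without both libraries that went against their labelled sex, and without Usp7 cKO replicate 1, 3, 4 or 5 or Usp7 WT replicate 1, 2 or 4 (usage -3.12 to -2.08 over the alternatives). The introns on both sides of the Snap25 exon went the same way as its bin, from 22.5% ± 2.37 to 31.3% ± 2.74 and from 17.5% ± 1.12 to 23.8% ± 2.36 of their clusters, with groups apart, but did not pass the test (adjusted p of the clusters = 0.201 and 0.334). Introns of Grin1 and Cask, with usage changes of -0.57 and -0.87, did not pass either (0.378 and 0.675).

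Across libraries, the genes most like each member were found after the genotype means were removed, over 10 libraries and 11379 genes, by Pearson's r of log2(TPM + 0.5). For Rbfox1 they were Pdhx (0.97), Fundc1 (0.96), Ndufs1 (0.95), Prmt5 (0.95) and Psmc6 (0.95). For Rbfox2 they were Cers6 (0.99), Fah (0.99), Tmem231 (0.99), Rab11fip4 (0.97) and Srd5a1 (0.97), and for Rbfox3 Map7d1 (0.98), Plekho1 (0.97), Svet1 (0.97), Rell2 (0.96) and Frmpd1 (0.96). Between members r was 0.46 for Rbfox1 with Rbfox2, 0.08 for Rbfox1 with Rbfox3 and 0.62 for Rbfox2 with Rbfox3. Libraries share depth and composition across genes, so these values are descriptions of 10 libraries.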

How the data were processed

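Per the labels' protocols, ribosomal RNA was digested with RNase H and random hexamers primed the cDNA of cortical total RNA; this gave 10 libraries, 5 per genotype. The deposited gene table holds TPM and the deposited bin and intron tables hold counts; the bin table also holds p-values and log2 fold changes of the authors' own comparison, which were not used. Per the submitters' processing notes, STAR 2.7.9a, Subread, featureCounts, SAMtools 1.10 and GRCm38 were used. The mean and SD of each group come from these values.

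Levels were fitted with limma 3.58.1 on log2(TPM + 0.5) for genes with mean TPM of at least 0.5, after 287 repeated lines were dropped. Bin and intron usage were fitted with edgeR 4.0.16 (quasi-likelihood, diffSpliceDGE, TMM) where the mean count reached 10 for a bin or 5 for an intron, in genes or clusters with at least 2 such features. Calls were made at 0.05 after Benjamini-Hochberg adjustment over all features, in R 4.3.3. DESeq2 1.42.0 and the summed bin counts served as alternatives. The scripts were tested on simulated data.

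The labelled sex was the covariate. All p-values weigh the genotype difference against the spread between animals that is left after the labelled sex. No fit took the sex given by Xist and Ddx3y as the covariate. Members and gene lists were chosen with earlier results of these data known, and Ptbp2 is in both the target and the regulator list. The genes named were the members, with Usp7 and Neurod6; for bins those past the threshold, the 2 next and the 2 most counted; up to 4 genes per list by p, of which some are not reported here; the 5 target bins and clusters of smallest p; and the 5 genes most like each member. Unspliced RNA is present in such libraries, so bins in introns of other transcripts also count it. Strand handling is not given in the sources used here, so reads of antisense genes cannot be told apart.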

Additional observations from a re-analysis of the deposited data

Results flagged for a closer look

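In groups of 5 libraries, 40 sets of member values were checked for a library far from the others, and 2 were found; chance flags about 1 in 20. At the Rbfox1 bin chr16:5886120-5886253, Usp7 cKO replicate 4 held 0.361% of the gene's bin counts, against 0.491% to 0.536% in the other Usp7 cKO libraries. At the Rbfox3 intron from the Rbfox3-209 first exon, chr11:118513404-118569551, Usp7 cKO replicate 1 held 9.71% of the cluster's reads, against 4.58% to 6.01% in the others. That library is one of the 2 that went against their labelled sex, and the usage change without both was 1.75.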

How the results depend on the processing

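For the members, 24 values under up to 20 alternatives gave 414 comparisons; 401 kept direction and call, 13 lost a call (9 at the Rbfox1 bin chr16:5886120-5886253, 3 at chr16:6173605-6173667 and 1 at the Rbfox1 intron chr16:7217829-7224311) and none changed direction. The level difference ran from -0.42 to -0.30 for Rbfox1, 0.00 to 0.10 for Rbfox2 and -0.42 to -0.30 for Rbfox3. For 43 values of listed genes and of Usp7 and Neurod6, 706 of 829 comparisons kept the call, 123 lost it and none changed direction. Genes called by level numbered 3832, and 2181 without the 2 libraries that went against their labelled sex. They numbered 5648 after rescaling by size factors, and 6429 with edgeR and 6599 with DESeq2 on summed bin counts. Leaving out 1 library gave 2794 to 3585. Target genes called numbered 8, with 4, 12, 15 and 16 in those settings and 4 to 9 leaving out 1 library. Genes called by bin usage numbered 397, with 215 without the 2 libraries and 237 to 370 leaving out 1 (7 to 10 of the target genes); clusters called numbered 23, with 12 to 26 leaving out 1, and the 1 target cluster became 0 without the 2 libraries and 0 to 1 leaving out 1. The cause was not tested, beyond the fewer samples. As CPM of bins, which are not scaled by length, the family shares in Usp7 WT and Usp7 cKO were 35.9% and 31.9% for Rbfox1, 35.3% and 42.6% for Rbfox2, and 28.8% and 25.6% for Rbfox3. With the halved Usp7 WT replicate 1 taken as deposited, an alternative added after the data were seen, 22 clusters were called.

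The number at the end of each sample title is shared between genotypes, but the labels do not say what it marks. Of 9 pairs with the same number, r of the deviations ran from 0.00 to 0.30 and 6 were over 0.1, with a median of 0.19; the 16 pairs with different numbers ran from -0.33 to 0.23, with a median of -0.10. Not every same-number pair was over 0.1, so the numbers were not taken to pair samples, although same-number pairs were more alike at the median. With the number as a replicate block, 3654 genes were called by level, 427 by bin usage and 19 clusters by intron usage, with 6, 11 and 1 of the target genes.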
